A study of Mus musculus with 5 samples.

Results

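The Olig family of basic helix-loop-helix (bHLH) transcription factors was examined in H3K27me3 peak lists of mouse embryonic fibroblasts (MEFs). Its 5 members, Olig1, Olig2, Olig3, Bhlhe22 and Bhlhe23, were taken by symbol from the 22350 protein-coding genes of the mm9 GENCODE vM1 annotation. They lay in 4 regions of H3K27me3, because Olig1 and Olig2 shared a region. The study profiled H3K27me3 by ChIP-Seq in 5 libraries, and the peak lists of 3 of them were analysed here, with 1 library per group.

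All lines came from MEFs with floxed Eed alleles (Eed encodes a subunit of PRC2), and lentivirus was used for stable expression of the transgenes. The K27M cells expressed H3.3K27M, a mutant histone known from diffuse midline glioma that carries methionine instead of the lysine methylated by PRC2. The EZHIP cells expressed human EZHIP, a PRC2 inhibitor that is found in PFA ependymoma. The K27R cells expressed H3.3K27R, with arginine at that residue, and served as the reference. The parental control and the single-clone EEDnull line were not analysed here. Since each group had 1 library and the lists held positions only, there was no replicate spread and no known depth to set a difference against. All values below describe these libraries, with no test, and counts do not show how high a peak was.

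Olig proteins bind E-box DNA as dimers and mostly act as transcriptional repressors that set the identity of neural progenitors, neurons and oligodendrocytes. PRC2 trimethylates lysine 27 of histone H3, and H3K27me3 marks silent developmental genes in cells of other lineages, such as fibroblasts. Mammalian PRC2 is found at CpG islands, short stretches rich in CG dinucleotides, from where the mark can extend over long domains.

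The DNA just before the start sites of 4 members is shown because CG content differed among them. All 4 kept the mark, and a link between CG content and the mark was not tested. Each stretch of 250 bases, from the NCBIM37 (mm9) genome, ends at the base before the start site and is written 5′ to 3′ on the strand of the gene, with CG dinucleotides in capitals.
Olig2 (chr16:91225545-91225794, plus strand): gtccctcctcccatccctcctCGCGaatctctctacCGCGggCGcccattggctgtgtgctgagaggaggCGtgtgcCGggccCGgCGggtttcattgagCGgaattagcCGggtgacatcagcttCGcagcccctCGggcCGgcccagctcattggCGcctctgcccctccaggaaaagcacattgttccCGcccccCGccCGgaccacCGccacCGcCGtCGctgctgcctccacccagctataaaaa
Olig1 (chr16:91269764-91270013, plus strand): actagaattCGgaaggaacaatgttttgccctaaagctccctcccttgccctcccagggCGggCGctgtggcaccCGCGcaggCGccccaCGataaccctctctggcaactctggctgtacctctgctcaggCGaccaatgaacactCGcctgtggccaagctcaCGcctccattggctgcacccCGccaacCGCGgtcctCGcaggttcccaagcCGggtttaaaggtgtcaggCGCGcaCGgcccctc
Bhlhe23 (chr2:180511606-180511855, minus strand): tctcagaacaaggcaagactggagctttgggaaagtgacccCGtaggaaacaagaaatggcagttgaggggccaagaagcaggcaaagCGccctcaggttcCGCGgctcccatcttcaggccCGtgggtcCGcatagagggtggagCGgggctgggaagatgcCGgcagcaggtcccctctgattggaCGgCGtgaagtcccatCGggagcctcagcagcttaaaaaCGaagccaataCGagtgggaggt
Olig3 (chr10:19076116-19076365, plus strand): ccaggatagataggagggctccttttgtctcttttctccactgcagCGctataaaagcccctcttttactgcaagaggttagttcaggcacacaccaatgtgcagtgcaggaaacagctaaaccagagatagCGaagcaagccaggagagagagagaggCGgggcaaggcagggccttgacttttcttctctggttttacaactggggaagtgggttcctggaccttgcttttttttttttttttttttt

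Olig2 and Olig1 had 22 and 18 CG dinucleotides in these 250 bases, and Bhlhe23 had 13. Olig3 had 3, against a median of 8 over the stretches of all 22350 genes (quartiles 3 and 18). At least as many CG dinucleotides as at Olig3 were found before 75.4% of all genes, so that its stretch was among the CG-poor ones. The observed to expected ratio of CG was 0.821 at Olig2, 0.740 at Olig1, 0.610 at Bhlhe23 and 0.218 at Olig3. The CpG island of Olig3, 696 bp long, lay further downstream, at 0.32 to 1.02 kb after the start site. At the other members an island spanned the start site, with a length of 2322 bp at Olig2, 2181 bp at Olig1, 1618 bp at Bhlhe22 and 1051 bp at Bhlhe23.

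Every member was marked in every list. The start sites of 5 of 5 members lay in a K27R peak, where the share of all protein-coding genes was 30.1%. The start sites of 5 of 5 also lay in a K27M peak (9.02% of all genes) and in an EZHIP peak (7.73%). Both inhibitor lists together held 6.60% of all genes and 21.9% of the 6735 genes whose start site was in a K27R peak. Among the 3118 of these K27R genes that had a CpG island within 1000 bp of the start site, as all 5 members did, the share in both lists was 39.4%. The whole gene body of each member, from 2047 bp at Olig3 to 3185 bp at Bhlhe22, was inside the peak in each list. Of the 4368 protein-coding genes no longer than Bhlhe22, 170 (3.89%) were covered from end to end in all 3 lists.

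Olig2, which specifies motor neurons and oligodendrocyte precursors in the ventral spinal cord, is at chr16:91225795-91228922 on the plus strand (ENSMUSG00000039830.8). Its start site lay in a K27R peak of 309.8 kb, a K27M peak of 96.2 kb and an EZHIP peak of 50 kb. The K27M peak reached 73.4 kb upstream and 22.8 kb downstream of the start site, and the EZHIP peak 27.4 kb and 22.6 kb. The downstream edges thus differed by a single 200 bp bin, while upstream the EZHIP peak stopped nearer to the gene. The K27R peak was 3.22-fold as wide as the K27M peak and 6.20-fold as wide as the EZHIP peak.

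Olig1, which acts in oligodendrocyte maturation and remyelination, is at chr16:91270014-91272184 on the plus strand (ENSMUSG00000046160.5), with its start site 44.2 kb from that of Olig2 in the same K27R peak. The K27M peak over its start site was 100.2 kb wide and the EZHIP peak 96.0 kb. The K27M to EZHIP width ratio was 1.04 for the peaks as listed, against 1.64 to 2.27 at the other members. This order depended on where the lists break peaks. With peaks up to 10000 bp apart joined, a setting added to the widths after the data were seen, Olig1 and Olig2 fell in the same peak of 281.2 kb in K27M and 153.6 kb in EZHIP, a ratio of 1.83, and the smallest ratio was 1.02, at Bhlhe23. The EZHIP peak was the 8th widest of the 4992 in its list, and the K27M peak ranked 40 of 3736. As listed, both extended mostly downstream, by 86.0 kb in K27M and 82.0 kb in EZHIP, against 14.2 kb and 14.0 kb upstream.

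Olig3, a factor of dorsal neural tube and hindbrain progenitors, is at chr10:19076366-19078412 on the plus strand (ENSMUSG00000045591.5). It had the widest K27R peak of the family, 331.0 kb, with 76.2 kb left in the K27M peak and 33.6 kb in the EZHIP peak. The K27R peak was 4.34-fold as wide as the K27M peak and 9.85-fold as wide as the EZHIP peak, the largest ratios among the 5 members for the peaks as listed. After joining, the ratios at Olig3 were 2.98 and 8.23, and the K27R to K27M ratio was larger at Bhlhe23, with 3.26. Olig3 had the least CG before the start site of the 4 stretches shown, and a link between CG content and peak width was not tested. The residual peaks of Olig3 were wider than those of Bhlhe22 in both lists. They were also wider than those of Bhlhe23 as listed, but in EZHIP the joined peak of Bhlhe23 (52.6 kb) was wider than that of Olig3 (40.2 kb).

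Bhlhe23, which is needed for rod bipolar cells of the retina, is at chr2:180509086-180511605 on the minus strand (ENSMUSG00000045493.3). Its start site lay in a K27R peak of 175.6 kb, a K27M peak of 53.8 kb and an EZHIP peak of 32.8 kb. The upstream edges of the K27M and EZHIP peaks were alike, at 24.2 kb and 24.8 kb, while the downstream edges lay at 29.6 kb and 8.0 kb. Further EZHIP peaks lay 14.6 to 19 kb and 26.6 to 27.8 kb downstream, both inside the K27M peak. With these joined to it, the EZHIP peak measured 52.6 kb and reached 24.8 kb upstream and 27.8 kb downstream, close to the K27M peak.

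Bhlhe22, a factor of retinal amacrine cells, dorsal horn interneurons and cortical neurons, is at chr3:17954325-17957509 on the plus strand (ENSMUSG00000025128.6). It stood apart from the others in size: its K27R peak spanned 20 kb, the K27M peak 16.6 kb and the EZHIP peak 8.8 kb. The K27R peak was 1.25 times the median width of its list (16 kb), where the K27R peaks of the other members were 11 to 20.7 times that median. The K27M peak was nearly as wide as the K27R peak, with a ratio of 1.20, and passed its downstream end by 0.2 kb. The EZHIP peak was close to centred on the start site, with 4.5 kb upstream and 4.3 kb downstream.

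The order of widths was K27R, K27M, EZHIP at each of the 5 members, as listed and after joining, which is also the order of the list medians (16, 6.8 and 4.4 kb). Relative to these medians the residual peaks of Olig1 as listed stood at 14.7 times in K27M and 21.8 times in EZHIP. For Olig2 the factors were 14.1 and 11.4, for Olig3 11.2 and 7.64, for Bhlhe23 7.91 and 7.45, and for Bhlhe22 2.44 and 2.0. Olig1, Olig2, Olig3 and Bhlhe23 were thus among the widest peaks of each list, with 5.32% or fewer of the peaks at least as wide. At Bhlhe22 44.1% of the K27R, 21.3% of the K27M and 23.3% of the EZHIP peaks were at least as wide. After joining, the shared peak of Olig1 and Olig2 stood at 38.0 times the joined K27M median and 26.5 times the joined EZHIP median. At Bhlhe23 these factors were 7.27 and 9.07. The list with the larger factor thus changed at Olig1 and Bhlhe23, and not at the other members.

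**Figure D1:**
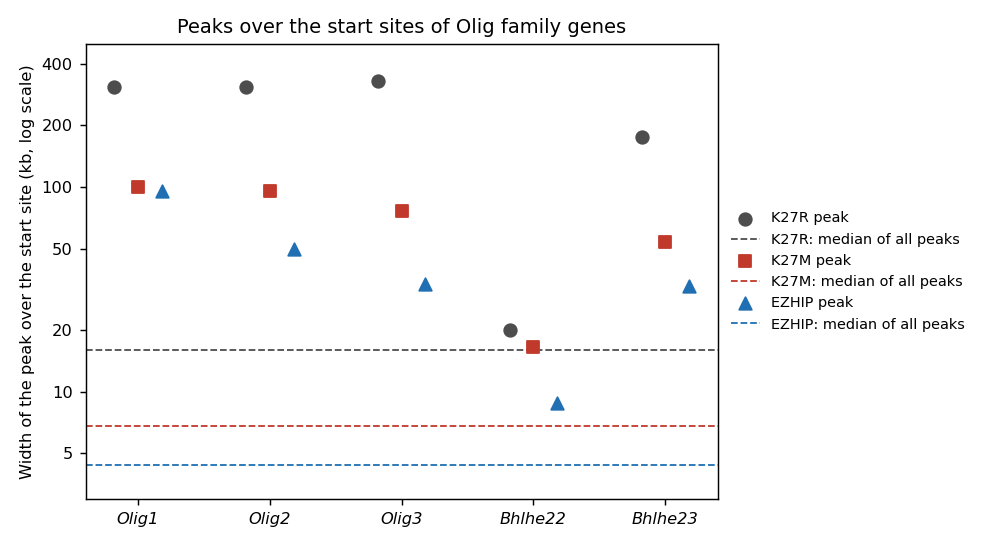
Width of the H3K27me3 peak over the start site of each Olig family gene (kb, log scale) in the K27R, K27M and EZHIP lists, 1 library each, with dashed lines at the median width of all peaks of a list. All 15 points lie above the median of their own list, and those of Bhlhe22 lie nearest to it.

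The shared Olig1 and Olig2 region, chr16:91048601-91358400, kept most of its length. K27M covered 267.8 kb of the 309.8 kb (86.4%) in 3 peaks of 71.4 to 100.2 kb. EZHIP covered 249.4 kb (80.5%) in 7 peaks of 5.4 to 96.0 kb. The peaks of both lists overlapped over 236.4 kb, or 84.2% of the 280.8 kb covered by either, and 29.0 kb (9.36%) of the region was in neither. With 86.4% and 80.5% of the region covered, a large overlap was fixed in advance, so this share largely repeats the cover. To describe how other loci fared, K27R regions on autosomes with a protein-coding start site and a width within a factor of 2 were taken as a group, with the regions of the member itself left out. Among 598 such regions, 4 (0.669%) were covered to at least this share in K27M and 0 in EZHIP. No K27M peak was found in 20.4% of these regions and no EZHIP peak in 12.9%, and the median cover of those with a peak was 9.56% in K27M and 7.80% in EZHIP. The 4 regions above it in K27M included those of the homeobox genes Barhl1, with 1700101E01Rik (92.3%), and Dmbx1, with Kncn and Faah (94.7%). The others held Ncoa5, Cd40, 1700025C18Rik and Cdh22 (87.2%), and a cluster of H2-T histocompatibility genes with further gene models (88.5%).

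Between the Olig2 and Olig1 start sites, both residual lists had a gap at nearly the same place inside the continuous K27R peak. In K27M it ran over chr16:91248601-91255800 (7.2 kb) and in EZHIP over chr16:91248401-91256000 (7.6 kb), so that each edge differed by 1 bin of 200 bp. The K27M gap began 22.8 kb after the Olig2 start site and ended 14.2 kb before that of Olig1. It held 183 CG dinucleotides at 44.5% G+C and 0 undetermined bases, and no CpG island was found in it. Gaps between adjacent peaks were 5200 bp or longer over the whole K27M list, against a minimum of 1200 bp in EZHIP and 0 in K27R, so that breaks of under 5200 bp appeared in the EZHIP list and not in the K27M list. Every list thus held gaps shorter than the joining distance named in the study's methods.

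The Olig3 region, chr10:18925201-19256200, kept less of its length in smaller pieces. K27M covered 165.6 kb (50%) in 7 peaks of 3.4 to 76.2 kb, and EZHIP 101.0 kb (30.5%) in 12 peaks of 1.2 to 33.6 kb. Of the EZHIP length, 96.0% was inside K27M peaks, and of the K27M length 58.6% was inside EZHIP peaks. A cluster of residual peaks lay far downstream of the gene in both lists, from 82.4 kb to 155.2 kb after the start site in EZHIP and from 84.8 kb to 155.0 kb in K27M. None of these held a CpG island or overlapped an annotated gene. Of 556 regions of like width, 41 (7.37%) were covered to at least the Olig3 share in K27M and 73 (13.1%) in EZHIP.

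The Bhlhe23 region, chr2:180461801-180637400, had residual peaks at the gene and at distant upstream places. K27M covered 85.2 kb (48.5%) in 3 peaks and EZHIP 59.0 kb (33.6%) in 5 peaks. Both lists had a peak near the upstream edge of the region, 102.0 to 123.0 kb before the start site in K27M and 109.0 to 122.0 kb in EZHIP. That peak held 3 CpG islands and Mir124a-3, a gene of the neuronal microRNA miR-124. A further pair of peaks, without an island, lay 71.8 to 82.2 kb upstream in K27M and 75.6 to 83.2 kb in EZHIP. Of 1067 regions of like width, 78 (7.31%) were covered to at least this share in K27M and 93 (8.72%) in EZHIP.

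In the Bhlhe22 region, chr3:17942201-17962200, a single peak per list remained. K27M covered 82.0% of the 20 kb and EZHIP 44.0%, and the EZHIP peak lay wholly inside the K27M peak. Of 1084 regions of like width, 15 (1.38%) were covered to at least this share in K27M and 44 (4.06%) in EZHIP. A K27M peak was missing from 64.5% of these narrow regions and an EZHIP peak from 69.8%.

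**Figure D2:**
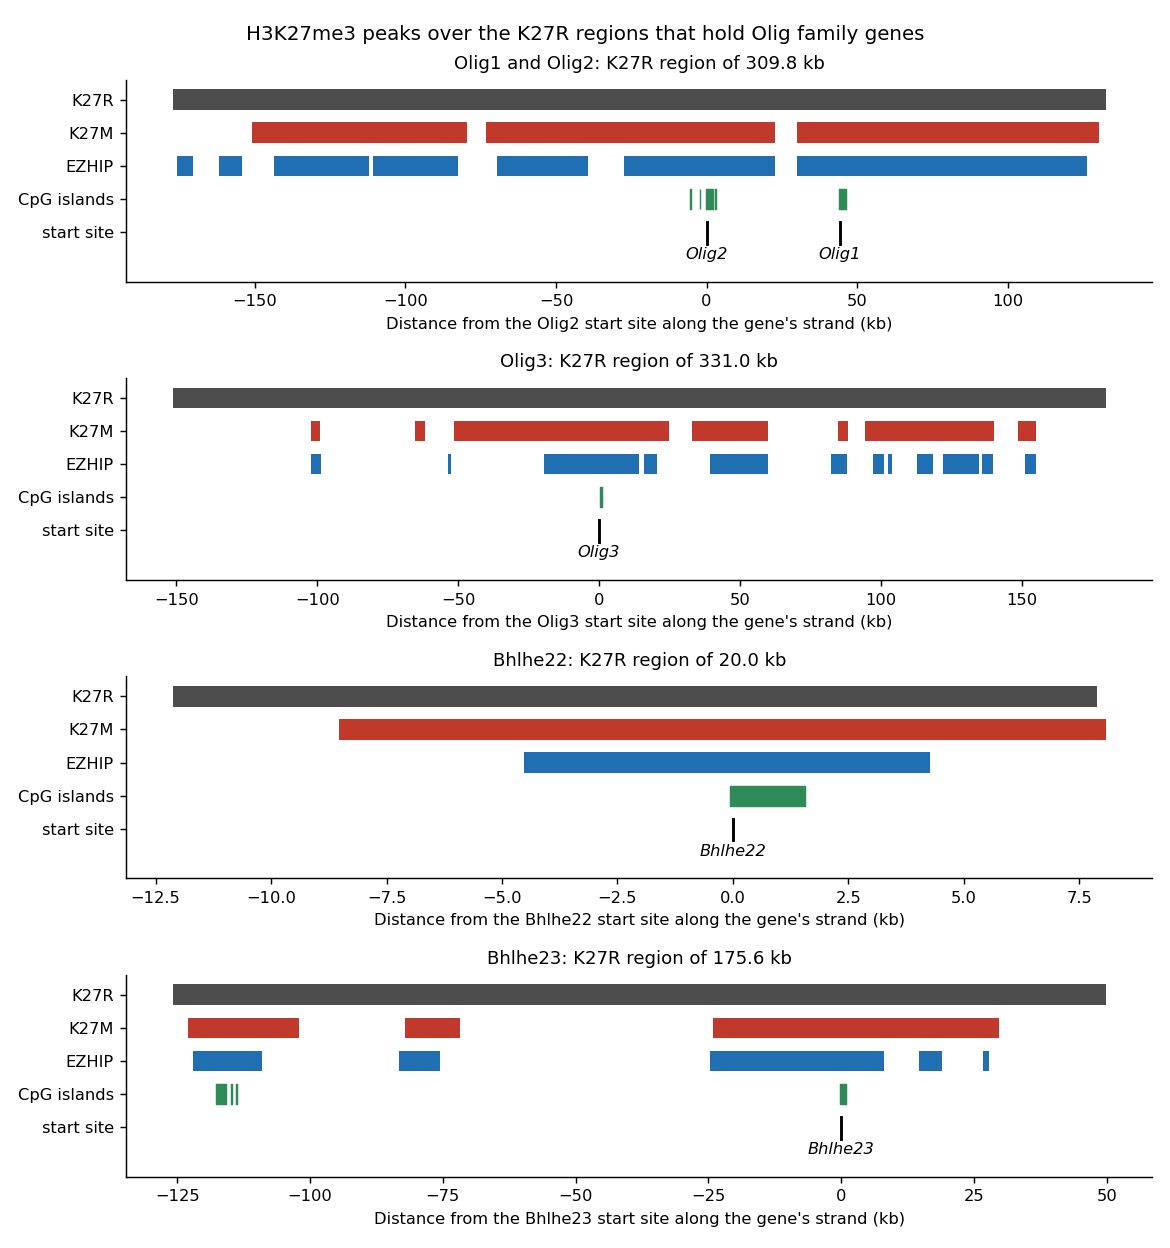
Peaks of the K27R, K27M and EZHIP lists, CpG islands (drawn to scale with a thin outline) and start sites over the 4 K27R regions, with distance from the start site in kb along the gene's strand. The K27R bar fills each region, the K27M and EZHIP bars show a gap at nearly the same place between Olig2 and Olig1, and residual peaks without an island lie at distance from Olig3.

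**Figure D3:**
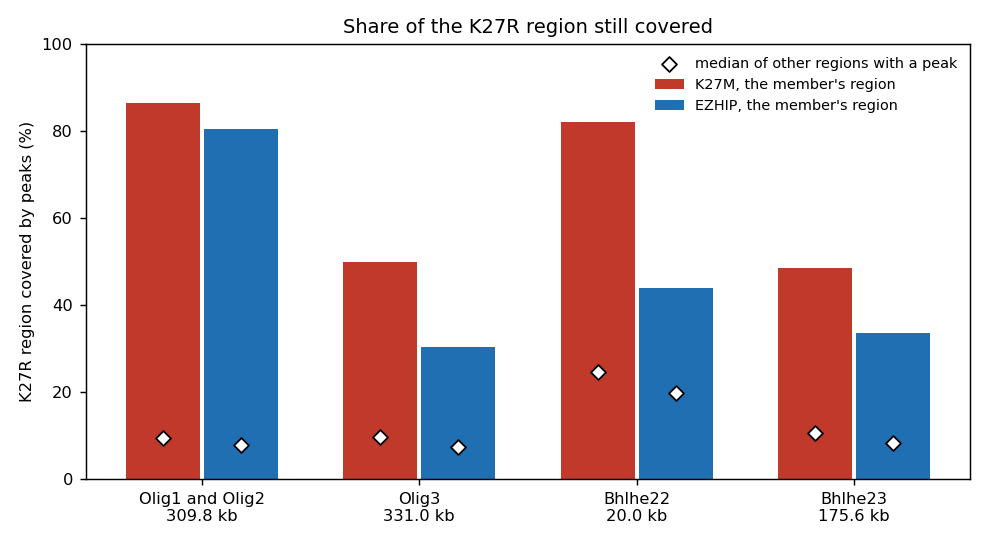
Share of each member's K27R region covered by K27M and EZHIP peaks (%), with diamonds at the median of other regions of like width that hold a peak. Every bar is above its diamond, with the Olig1 and Olig2 region at 86.4% and 80.5%. K27M exceeds EZHIP in all 4 regions, for the bars and for the diamonds.

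All 11 CpG islands found in the 4 regions lay wholly inside a K27M peak and wholly inside an EZHIP peak. Of the 6825 islands genome-wide that overlapped a K27R peak, 2200 (32.2%) did so. The islands were 5 in the Olig1 and Olig2 region, 1 at Olig3, 1 at Bhlhe22 and 4 in the Bhlhe23 region. They were clustered, with 4 in the peak over the Olig2 start site and 3 in the upstream peak with Mir124a-3. The others lay in the peaks over the other member start sites, so that this count largely repeats that of the start sites. The islands made up from 0.210% of the length of the Olig3 region to 8.09% of the Bhlhe22 region. Outside the islands, K27M peaks covered 86.2% of the Olig1 and Olig2 region, 80.4% of the Bhlhe22 region, 49.9% of the Olig3 region and 47.5% of the Bhlhe23 region. In EZHIP these shares were 80.2%, 39.1%, 30.4% and 32.3%. In the Olig3 region 6 of 7 K27M and 11 of 12 EZHIP peaks held no island. That region had 1 island, so no more than 1 peak per list could hold it. In the Olig1 and Olig2 region 1 of 3 K27M and 5 of 7 EZHIP peaks held no island. In the Bhlhe23 region these were 1 of 3 and 3 of 5, and at Bhlhe22 the single peak of each list held an island. The share of peaks without an island over the whole lists was not taken.

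Cover by distance was compared to see how far the mark reached from each start site. Within 5 kb on either side, the K27M peaks covered 100% at all 5 members. The EZHIP peaks covered 100% as well, other than at Bhlhe22 with 90.5% upstream and 85.5% downstream. Averaged over all 6735 genes with the start site in a K27R peak, K27M covered 23.5% of the upstream and 25.7% of the downstream 5 kb, and EZHIP 19% and 21.7%. This group includes genes without a residual peak at the start site, as 21.9% of it lay in both inhibitor lists. The contrast near the start site thus largely repeats the count of start sites in peaks. At 50 to 100 kb the averages over the 6735 genes were 6.05% upstream and 5.80% downstream in K27M, and 4.93% and 4.76% in EZHIP. Olig2 was covered at that distance to 87.6% upstream and 100% downstream in K27M, and to 74.4% and 100% in EZHIP, where the downstream stretch is that of the Olig1 peak. Olig3 was covered to 12% upstream and 38.0% downstream in K27M, and to 4.87% and 36.4% in EZHIP. Bhlhe22 had no residual cover beyond 10 kb in either list. Bhlhe23 was covered to 20.8% upstream in K27M and 15.2% in EZHIP, with 0% downstream in both.

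**Figure D4:**
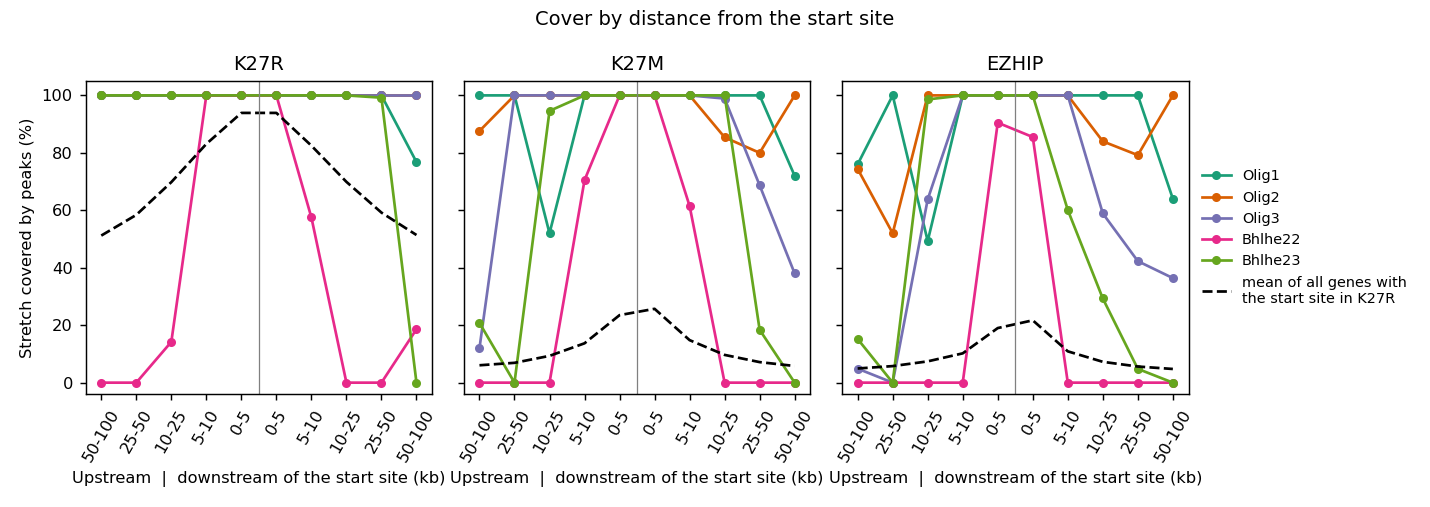
Share of stretches at 0 to 100 kb upstream (left) and downstream (right) of the start site that was covered by peaks (%), for each member and as the mean of the 6735 genes with the start site in a K27R peak (dashed). The K27R, K27M and EZHIP lists have a panel each. Within 5 kb the K27M and EZHIP lines of the members lie at 85.5 to 100%, above the dashed lines at 19 to 25.7%. The dashed lines include genes without a residual peak at the start site. In the K27M and EZHIP panels Bhlhe22 falls to 0 beyond 10 kb.

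Within 50 kb on each side of the start site, K27R peaks covered 100 kb at Olig1, Olig2 and Olig3, 99.8 kb at Bhlhe23 and 20 kb at Bhlhe22. K27M peaks covered 92.8 kb at Olig1 and at Olig2, 92.0 kb at Olig3, 53.8 kb at Bhlhe23 and 16.6 kb at Bhlhe22. EZHIP peaks covered 92.4 kb at Olig1, 80.4 kb at Olig2, 49.0 kb at Olig3, 38.4 kb at Bhlhe23 and 8.8 kb at Bhlhe22. The windows of Olig1 and Olig2 overlap, so their values share most of the same peaks. At least as much EZHIP cover as at Olig1 was found at 10 genes (0.0447% of all), Olig1 included, and at least as much K27M cover at 57 genes (0.255%). For Olig2 these shares were 0.152% in EZHIP and 0.255% in K27M, for Olig3 1.01% and 0.282%, for Bhlhe23 1.73% and 1.34%, and for Bhlhe22 11.2% and 7.65%. The median member had 92.0 kb in K27M and 49.0 kb in EZHIP, against medians of 1.5 kb and 1.2 kb over the 6735 K27R genes. Of these genes, unlike the members, most did not have the start site in both inhibitor lists.

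The protein-coding genes nearest in pattern, by the smallest summed difference of these 3 covered lengths, were named for each member. They were 1700025C18Rik (summed difference 6.8 kb) and Hoxc11 (7.1 kb) for Olig1, Lbx1 (1.2 kb) and Uncx (4.5 kb) for Olig2, and Cux2 (7.9 kb) and Gsx1 (8.4 kb) for Olig3. For Bhlhe23 they were Foxn4 (3.4 kb) and Aldh1a2 (3.6 kb), and for Bhlhe22 the neighbouring genes Mau2 and Sugp1 (2.8 kb each). Hoxc11, Lbx1, Uncx, Cux2 and Gsx1 encode homeobox factors and Foxn4 a forkhead factor, and Aldh1a2 encodes an enzyme of retinoic acid synthesis. The start sites of Mau2 and Sugp1 lay in no peak of any list, unlike that of Bhlhe22, and that of 1700025C18Rik lay in no EZHIP peak. The likeness was taken over 3 values per gene, from 1 library each.

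Of 23 protein-coding neighbours within 250 kb of a member start site, 9 (39.1%) had the start site in a K27R peak, 4 (17.4%) in a K27M peak and 3 (13%) in an EZHIP peak, and 14 were in no list. The shares over all protein-coding genes were 30.1%, 9.02% and 7.73%. Those in both inhibitor lists were 4932438H23Rik and Gm9881, in the Olig1 and Olig2 region, and Nkain4, 178 kb upstream of Bhlhe23. Tcfl5, a bHLH gene 134 kb downstream of Bhlhe23, lay in a K27M peak and 1.01 kb from an EZHIP peak. Cyp7b1, an oxysterol hydroxylase gene next to Bhlhe22, and Col9a3, Birc7, 9230112E08Rik and Col20a1 near Bhlhe23 were in K27R peaks alone.

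The Olig1 and Olig2 region ended before genes of a different kind on both sides. Downstream of Olig1 lie the cytokine receptor genes Ifnar2, Il10rb and Ifnar1, whose start sites were 14.6, 48 and 127 kb from the nearest K27R peak. Upstream, the start sites of Gcfc1 and Synj1 were 3.81 and 37.0 kb from it. The only coding neighbour of Olig3 within 250 kb, the interferon gamma receptor gene Ifngr1, lay 6.96 kb from a K27R peak and 80.4 and 80.2 kb from a K27M and an EZHIP peak. Near Bhlhe22, Cypt12 lay in no list. Near Bhlhe23, Dido1, Ogfr, Slc17a9, Ythdf1, Arfgap1, 1600027N09Rik and 2310003C23Rik lay in no list, and the start site of Slc17a9, a vesicular nucleotide transporter gene, was 1.83 kb from the K27R peak.

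Genes that act with the Olig factors or mark the cells they specify were then counted. Of 32 genes of the ventral neural tube and the oligodendrocyte lineage, 31 were found in the annotation, other than Myrf. The start sites of 23 (74.2%) lay in K27R peaks, 19 (61.3%) in K27M peaks and 17 (54.8%) in EZHIP peaks, against 30.1%, 9.02% and 7.73% of all genes. Those kept in both lists (16) with the most cover within 50 kb were Pax6 (51.6 kb in K27M and 46.0 kb in EZHIP), Lhx3 (55.0 and 42.6 kb), Mnx1 (56.5 and 38.9 kb), Hes5 (43.4 and 35.8 kb) and Nkx6-1 (44.0 and 32.6 kb). Pax6, Lhx3, Mnx1 and Nkx6-1 are homeobox factors of spinal progenitors and motor neurons, and Hes5 is a Notch target. All 5 had less cover than Olig1 and Olig2 in both lists, but Lhx3 and Mnx1 had more than Bhlhe23 in both (53.8 kb in K27M and 38.4 kb in EZHIP).

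Some genes of the lineage were marked in K27R but missing from one or both inhibitor lists. Mag, a myelin glycoprotein gene, Cldn11, a tight junction gene of myelin, and Gli1, an effector of Hedgehog signalling, were in K27R peaks and in neither inhibitor list. Dbx2, Sox9 and Zfp488 lay in a K27M but not an EZHIP peak, with the Dbx2 start site 1.39 kb from an EZHIP peak. Myt1 lay in an EZHIP but not a K27M peak. In no list were 8 genes: Nkx6-2, Ptch1, Cspg4, Id2, Id4, Mog, Cnp and Gpr17. Their start sites lay from 0.674 kb (Ptch1) to 1975 kb (Nkx6-2) from the nearest K27R peak, with Mog at 33.7 kb and Cnp at 53.0 kb.

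Of 18 other neural bHLH genes, 14 (77.8%) lay in K27R peaks, 12 (66.7%) in K27M and 11 (61.1%) in EZHIP peaks. The 11 EZHIP genes were also in the K27M list. The most covered were the proneural and neuronal differentiation genes Neurog1 (84.1 kb in K27M and 51.8 kb in EZHIP), Neurod2 (69.6 and 64.0 kb), Neurog3 (83.2 and 48.6 kb) and the cerebellar and pancreatic factor Ptf1a (60.6 and 26.6 kb). None of these reached the EZHIP cover of Olig1 or Olig2. Neurog1 and Neurod2 had more EZHIP cover than Olig3 (49.0 kb), and all of those named had more K27M cover than Bhlhe23 (53.8 kb). Neurod4, Neurod6 and Nhlh1 were in K27R peaks and in neither inhibitor list, and the start site of Nhlh1 was 0.704 kb from a K27M peak. Bhlhe41, which shares the stem of its symbol with Bhlhe22 and Bhlhe23 but belongs to another family, lay in a K27M peak of 1.4 kb and in neither other list.

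As a check of the label, 10 genes that fibroblasts express, among them Col1a1, Col1a2, Vim and Fn1, were examined. Start sites of 0 of 10 lay in a peak of any list. Expression was not part of these lists, so the check is limited to the absence of the mark.

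**Figure D5:**
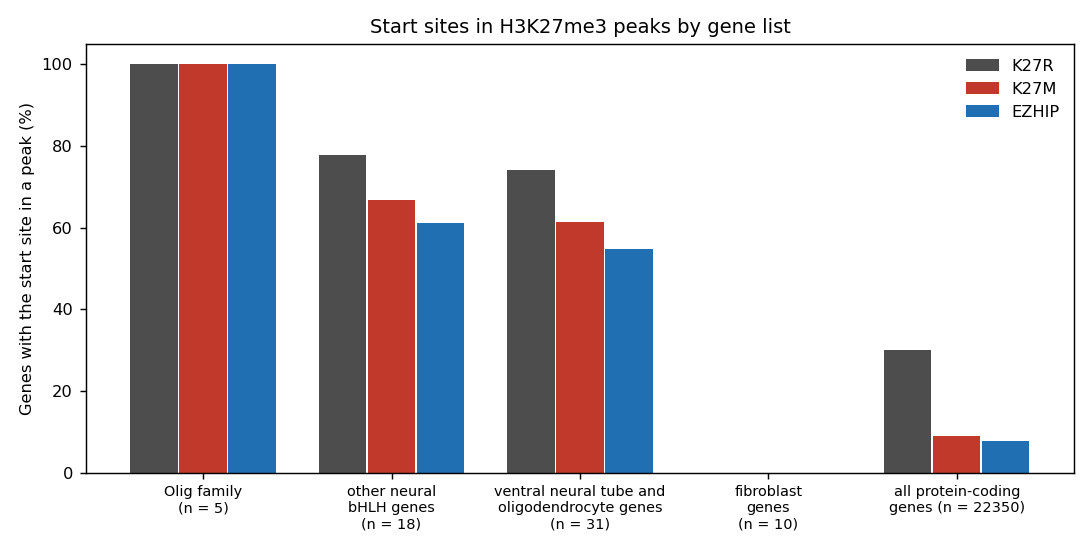
Share of start sites in a peak of the K27R, K27M and EZHIP lists (%), for the Olig family, other neural bHLH genes, ventral neural tube and oligodendrocyte genes, fibroblast genes and all protein-coding genes. The Olig family is at 100% in all 3 lists, the other neural lists at 54.8 to 77.8%, the fibroblast genes at 0 and all genes at 7.73 to 30.1%.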

How the data were processed

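H3K27me3 ChIP-Seq of MNase-digested, crosslinked chromatin was available as peak lists of the K27R, K27M and EZHIP lines, 1 library each, grouped by sample title. The authors aligned reads with Bowtie 1.0.0 to mm9 and to a second genome used for reference scaling, and called broad peaks in each library with MOSAiCS-HMM. The methods state a single group of settings for H3K27me3 peaks, with a maximum gap for joining regions, yet each deposited list holds gaps shorter than it (minimum 0 in K27R, 5200 bp in K27M and 1200 bp in EZHIP). Whether the reference scaling entered the calls is not given in the sources used here. The deposited lists give chromosome, start and end, with no height, score or p-value. All positions lay on a grid of 200 bp, were counted in whole bins and are printed from 1. Because no reads are given, depth is unknown.

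The last peak lay inside the NCBIM37 (mm9) chromosome length on all 20 chromosomes, and GENCODE vM1 gene models were used without conversion. The start site is the 5′ end of the gene model. A start site was counted when it lay inside a peak, and overlap meant at least 1 bp. CpG islands were segments over 200 bp whose G+C content reached 50% and whose CG ratio (observed over expected) exceeded 0.6, from a scan that added 17 per CG and -1 per other base. There were 27115 islands, and repeats were left unmasked. The interval and island code was tested on simulated data. Python 3.11.15, numpy 2.4.6 and numba 0.67.0 were used.

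The members, gene lists and tests were chosen with earlier results of these data known, and the comparison with regions of like width was added after values were seen. Named genes were the 5 members, protein-coding genes within 250 kb or in the same K27R region, genes of each list in only one inhibitor list, up to 5 per list kept in both with the most cover, up to 5 in K27R alone, and the 2 nearest in pattern per member, over 500 kb away. Genes of the ventral neural tube and oligodendrocyte list that lay in no peak list were named as well. Pdgfra, of the same gene list, was named beside the fibroblast genes. Alternatives were a minimum width of 5000 bp, joining peaks separated by up to 10000 bp, equal numbers of peaks, a distance of 5000 bp, any transcript start, and windows of 10 or 100 kb. One gene and one upstream stretch that these rules would name are not reported here.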

Additional observations from a re-analysis of the deposited data

How the results depend on the processing

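The lists hold 1 library per group and no scores, so that no result has a replicate check, no library could be left out, and no alternative could use depth or peak height. No paired analysis was possible because each group had 1 library and no comparison had a test. The counts of start sites in peaks, for the members and for both neural lists, stayed within 1.5 times their main value under every alternative. With the 3736 widest peaks of each list, 4 members were in a K27R peak, since that of Bhlhe22 was too narrow. The members' median cover within 50 kb (100% for K27R, 92.0% for K27M and 49.0% for EZHIP) became 94.2%, 58.5% and 34.8% with 100 kb on each side, and with 10 kb 100% in K27M and in EZHIP. Merging of peaks up to 10000 bp apart gave 100% in K27M, and a minimum width of 5000 bp gave 44.2% in EZHIP. Merging closed the gap between Olig2 and Olig1 and raised the cover of that region to 90.8% in K27M and 86.1% in EZHIP, with 81.0% of the union shared. At Olig3, merging gave 56.9% in K27M, 38.2% in EZHIP and 63.7% of the union shared, and the minimum width gave 46.8%, 23.6% and 45.2%. At Bhlhe23, merging gave 41.7% in EZHIP and 82.5% of the union shared, and the minimum width gave 30.4% and 59.7%. Of the start-site peak widths, added after the data were seen, 5 moved by over 1.5 times, all under merging: Olig1 and Olig2 in both inhibitor lists (281.2 kb in K27M and 153.6 kb in EZHIP) and Bhlhe23 in EZHIP (52.6 kb). The shares of the Bhlhe22 region did not move under these alternatives. K27M covered more of each region than EZHIP under all of them. Over the whole lists K27M peaks also covered more, with 51.0 Mb against 36.5 Mb in EZHIP.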
